A study of Mus musculus with 7 samples.

Results

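The genes described here encode Lrrc55 and the other subunits of the large-conductance calcium- and voltage-gated potassium channel, the BK channel. The 8 genes were chosen by name, with Lrrc55 in the lead because of its lower level in heterozygous islets, and all 8 of 8 were found among the 19938 genes that the array measured with a probe set annotated to a single gene symbol. Where a gene had more than 1 such probe set, the brightest on average was used. Because Lrrc55 was picked for its genotype difference in these mice, that difference is given as a description and was not tested.

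Pancreatic islets were taken from pregnant C57BL/6-background female mice on day 15 of pregnancy, after timed mating at 12 to 16 weeks of age, and the islets of each mouse were put on an Affymetrix array of their own. The 3 control mice had an intact prolactin receptor gene on both chromosomes (PrlR+/+) and the 4 others were heterozygous for the receptor null allele (PrlR+/-). Non-pregnant mice and mice homozygous for the null allele were not analysed here, so the comparison covers the loss of a single receptor allele in pregnancy. The allele is not confined to a cell type by any label, and the islets hold beta cells together with other endocrine, vascular, nerve and exocrine cells.

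BK channels open when the membrane is depolarised and calcium rises at their inner face, and the potassium that leaves the cell then helps to end the action potential. Kcnma1 encodes the pore, of which each channel holds a ring of identical copies, and the beta subunits of the Kcnmb genes and the leucine-rich repeat gamma subunits of the Lrrc genes change how readily that pore opens. In the gamma group, Lrrc26 shifts opening to more negative voltage most strongly and Lrrc52, Lrrc55 and Lrrc38 do so to smaller degrees. In beta cells BK current takes part in shaping action potentials. Prolactin receptor signalling runs through Jak2 and STAT5, and STAT5 binds the motif TTCNNNGAA.

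The sequences just before the starts of Lrrc55, Kcnma1 and Kcnmb2 are shown first because these were the 3 BK genes with values above the median gene on all 7 arrays. Each is the 250 bases before the RefSeq start on the gene's own strand, 5′ to 3′, in build GRCm38.p6. Capitals mark TTCNNNGAA, which reads the same on both strands, and CGTCA, the cyclic AMP response half-site, on either strand; these motifs do not overlap in the windows shown. Lrrc55 lies on the minus strand at chr2:85198751-85199000, Kcnma1 on the minus strand at chr14:24004206-24004455 and Kcnmb2 on the plus strand at chr3:31902453-31902702.
Lrrc55: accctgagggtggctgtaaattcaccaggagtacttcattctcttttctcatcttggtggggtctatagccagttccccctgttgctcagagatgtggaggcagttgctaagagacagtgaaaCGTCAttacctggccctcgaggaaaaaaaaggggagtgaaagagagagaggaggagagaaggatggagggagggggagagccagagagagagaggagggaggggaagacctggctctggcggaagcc
Kcnma1: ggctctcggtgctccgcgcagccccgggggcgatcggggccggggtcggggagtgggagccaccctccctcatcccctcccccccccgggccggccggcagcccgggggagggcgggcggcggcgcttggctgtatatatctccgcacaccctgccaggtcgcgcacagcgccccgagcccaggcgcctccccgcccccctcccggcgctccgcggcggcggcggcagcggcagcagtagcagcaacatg
Kcnmb2: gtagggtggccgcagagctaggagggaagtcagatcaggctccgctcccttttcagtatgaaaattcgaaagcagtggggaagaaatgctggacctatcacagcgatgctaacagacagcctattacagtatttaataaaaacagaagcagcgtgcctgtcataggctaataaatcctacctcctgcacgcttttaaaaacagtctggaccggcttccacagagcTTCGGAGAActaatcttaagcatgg
The Lrrc55 window held 0 matches to TTCNNNGAA and 1 to CGTCA, which began 127 bases before the start. The Kcnmb2 window held the only TTCNNNGAA among the 8 genes, beginning 25 bases before the start, and 7.02% of the 32851 windows of this length in the table held that motif. CGTCA was present in 17.8% of all windows, and among the 8 genes in that of Lrrc55 alone. The windows differed widely in base composition, from 47.2% G and C with 8 CpG dinucleotides in Kcnmb2 and 54.0% with 3 in Lrrc55 to 79.2% with 31 in Kcnma1 and 83.6% with 43 in Kcnmb4. The median window had 52.4% G and C and 6 CpG dinucleotides. A match describes letters in the window and does not show binding, and the absence of a match covers these 250 bases only.

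The values are log2 intensities, in which a difference of 1 is a doubling, and levels of different genes cannot be ranked because each probe set binds with its own strength. The median gene lay between 7.34 and 7.37 on every array and the lower quartile between 5.62 and 5.82, and across genes, which are not independent replicates, any pair of arrays had a Pearson r of 0.9883 to 0.9974. With 3 arrays against 4, the number of arrays limits the precision. For the islet label, the mean of 9 measured beta cell markers lay between 11.923 and 12.211 in every mouse. Acinar markers averaged 11.643 to 12.07 in PrlR+/+ and 11.719 to 12.358 in PrlR+/- mice. Since levels of different genes cannot be ranked, these means do not give the share of islet cells. The receptor gene itself was not analysed here and gave no check of the genotype labels. The labels give control and heterozygous mice codes of different form without saying what the codes mean, and anything they mark cannot be told apart from genotype in any of the differences below.

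Lrrc55, whose product is a gamma subunit of the BK channel, was measured at 10.17, 9.92 and 10.42 in controls 1 to 3 (PrlR+/+). In heterozygotes 1 to 4 (PrlR+/-) it was at 9.44, 9.33, 9.25 and 9.50. The groups did not overlap, and a gap of 0.42 separated the highest heterozygous mouse from the lowest control. The heterozygous mice lay close together, over a range of 0.25, while the controls spread over 0.50. The control mean was 10.17 ± 0.25 (SD, n = 3) and the heterozygous mean 9.38 ± 0.11 (SD, n = 4), a log2 difference of -0.79 ± 0.12 (SE), or 57.8% of the control level. Of all 19938 genes, 1.21% had every heterozygous value below every control value, but Lrrc55 was chosen for this difference and nothing is read from that share.

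With each mouse left out in turn the difference of Lrrc55 stayed between -0.915 without PrlR+/+ 2 and -0.665 without PrlR+/+ 3. In whole islets fewer cells of a type and less RNA per cell cannot be told apart. Beta cell markers averaged 12.171, 12.052 and 12.211 in the controls 1 to 3. They averaged 12.162, 12.117, 12.118 and 11.923 in the heterozygous mice 1 to 4, and those groups overlapped. Relative to that marker mean, Lrrc55 lay at -2.001, -2.132 and -1.791 in PrlR+/+ and at -2.722, -2.787, -2.868 and -2.423 in PrlR+/- mice. These values keep the difference for which Lrrc55 was chosen, -0.73 on this scale, and the part of beta cell content in it was not tested.

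**Figure D1:**
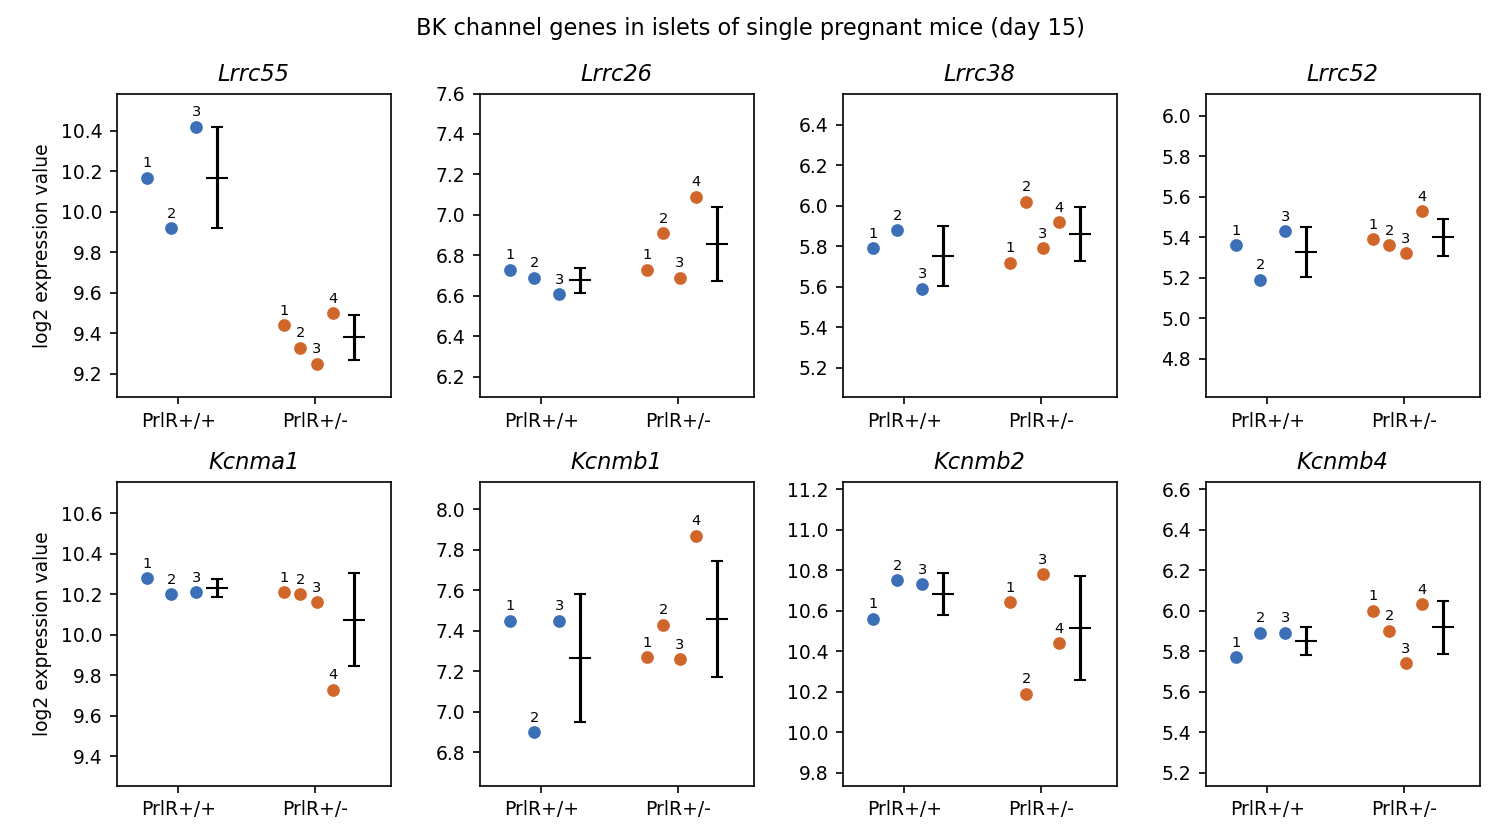
Log2 expression value of each BK channel gene in each mouse, numbered by replicate, with the mean and SD of each group in black beside the points (n = 3 PrlR+/+ in blue, n = 4 PrlR+/- in orange). Every panel spans the same length of log2 scale around its own centre; the groups are apart for Lrrc55, with 9.50 as the highest PrlR+/- and 9.92 as the lowest PrlR+/+ value, and overlap for the 7 other genes.

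None of the 7 other BK genes passed the test of the genotype difference over all genes. limma with Benjamini-Hochberg adjustment gave an adjusted p of 0.99 for each, and 0 of the 7 had an unadjusted p under 0.05, against 438 or 2.20% of all genes; 0 or 0.00% of all genes passed the adjusted threshold of 0.05. The groups overlapped for all 7, where 2.24% of all genes had groups that did not. Of the 7 means, 5 were higher and 2 lower in PrlR+/- islets, with a median difference of 0.073, while over all genes 11215 were higher and 8723 lower with a median of 0.014. With Lrrc55 included the median of the 8 genes was 0.07.

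Kcnma1, the pore gene, was at 10.28, 10.20 and 10.21 in controls 1 to 3 and at 10.21, 10.20, 10.16 and 9.73 in heterozygotes 1 to 4. PrlR+/- 4 stood below the other 6 mice, which all lay within 10.16 to 10.28. The log2 difference was -0.16 ± 0.12 (SE), with a 95% interval from -0.45 to 0.14, and without PrlR+/- 4 it was -0.04. The lower bound lies above the -0.79 measured for Lrrc55; the difference between the genes was not tested, since Lrrc55 was chosen for its value. A second probe set annotated to Kcnma1, which shares 0 of its listed transcript records with the first, gave 6.81, 6.83 and 6.79 in controls 1 to 3 and 6.55, 6.51, 6.95 and 7.69 in heterozygotes 1 to 4. There PrlR+/- 4 was the highest mouse and the difference was 0.12, so the probe sets disagreed in direction, and their mean per mouse gave -0.02. Whether the second probe set measures Kcnma1 was not tested. Neither the disagreement nor that mean is therefore read as a result about the gene.

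Kcnmb2, whose beta subunit carries an inactivation peptide that closes the channel soon after it opens, was at 10.56, 10.75 and 10.73 in controls 1 to 3. In PrlR+/- 1 to 4 it was at 10.64, 10.19, 10.78 and 10.44. The heterozygous mice included both the highest and the lowest value, and the difference was -0.17 ± 0.14 (SE), with a 95% interval from -0.50 to 0.16. Without PrlR+/- 2 it was -0.06. Kcnmb1, the beta subunit typical of smooth muscle, was at 7.45, 6.90 and 7.45 in controls 1 to 3 and at 7.27, 7.43, 7.26 and 7.87 in heterozygotes 1 to 4. Its difference of 0.19 ± 0.19 (SE), 95% interval -0.26 to 0.65, was 0.0075 without PrlR+/+ 2 and 0.053 without PrlR+/- 4, the lowest and the highest mouse. It was the most variable of the 8 genes, and 92.6% of all genes had a smaller spread within genotype. Kcnmb4, the beta subunit known mainly from brain, ranged from 5.77 to 5.89 in the controls and from 5.74 to 6.03 in the heterozygous mice. Its difference was 0.07 ± 0.08 (SE), with an interval from -0.13 to 0.27.

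The 3 paralogs of Lrrc55 had values below the median gene in every mouse. Lrrc26, the strongest gamma subunit and known from secretory epithelia, was at 6.73, 6.69 and 6.61 in controls 1 to 3 and at 6.73, 6.91, 6.69 and 7.09 in heterozygotes 1 to 4. Its mean was higher by 0.18 ± 0.10 (SE, 95% interval -0.07 to 0.42), and by 0.10 without PrlR+/- 4. Lrrc38 ranged from 5.59 to 5.88 in the controls and from 5.72 to 6.02 in the heterozygous mice, a difference of 0.11 ± 0.10 (SE, 95% interval -0.13 to 0.34). Lrrc52, best known as the partner of the sperm potassium channel Kcnu1, ranged from 5.19 to 5.43 in the controls and from 5.32 to 5.53 in the heterozygous mice, below the lower quartile of genes on all 7 arrays. Its difference was 0.07 ± 0.08 (SE, 95% interval -0.12 to 0.27). No measure of signal above background came with the values, so at these levels a difference in transcripts may not show.

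PrlR+/- 4 was the highest of the 7 mice for 4 of the 8 genes, Lrrc26, Lrrc52, Kcnmb1 and Kcnmb4, and the lowest for Kcnma1. Of the 9968 genes below the median level, 42.4% were highest and 7.31% lowest in that mouse, and of the 9970 genes at or above it 16.3% were highest and 28.2% lowest. Its part in the members' differences was measured by leaving it out. Without it Lrrc55 was at -0.83, Kcnma1 at -0.04, Kcnmb1 at 0.053, Lrrc26 at 0.10, Lrrc38 at 0.09, and Lrrc52 and Kcnmb4 both at 0.03, while Kcnmb2 was at -0.14.

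**Figure D2:**
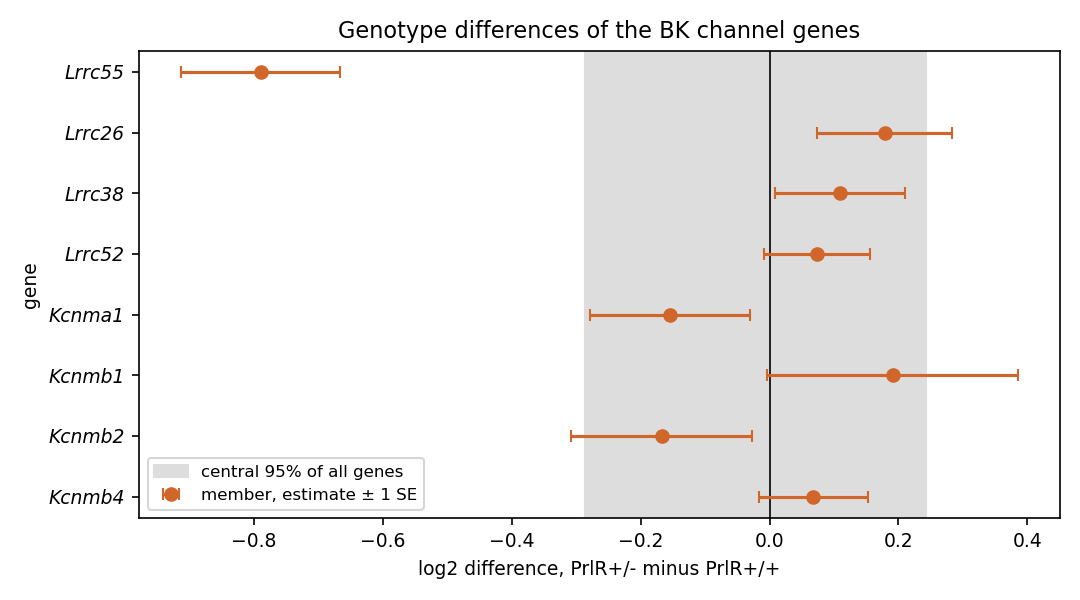
Log2 difference, PrlR+/- minus PrlR+/+, of the 8 BK channel genes (points; bars are 1 standard error from limma), over a grey band from -0.286 to 0.243 that holds the central 95% of all 19938 genes. Lrrc55 at -0.79 lies outside the band and the 7 others, from -0.17 to 0.19, lie inside it; Lrrc55 was selected for its difference.

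The profile of Lrrc55 over the 7 mice was compared with that of every other gene, after each gene's own mean was subtracted, by the root mean square distance in log2 units. The closest were Adgrd1, an adhesion G protein-coupled receptor gene, at a distance of 0.137, and Tmem255a, a membrane protein gene, at 0.156. St6gal2, a sialyltransferase gene, followed at 0.188, Hoatz at 0.191 and Ngfr, the p75 neurotrophin receptor gene, at 0.205. The median gene lay at a distance of 0.44. This likeness includes the genotype difference for which Lrrc55 was chosen, so lower heterozygous values in these 5 genes, and a likeness in the order of the mice, are part of how they were found.

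Tmem255a was at 11.87, 11.60 and 12.08 in controls 1 to 3 and at 11.16, 11.02, 11.32 and 11.49 in heterozygotes 1 to 4. Adgrd1 was at 7.45, 7.22 and 7.73 and at 6.89, 6.67, 6.89 and 7.09 in the same order. St6gal2 did not overlap between the groups either, with 6.18 as its lowest control and 6.11 as its highest heterozygous value. Hoatz met at 5.28 in PrlR+/+ 2 and PrlR+/- 1, and for Ngfr PrlR+/- 1 at 8.59 lay above PrlR+/+ 2 at 8.54. Of the other BK genes, Kcnmb2 at 0.396 and Kcnma1 at 0.399 were nearest, with 14.2% and 16.0% of all genes closer to Lrrc55. The 5 others lay between 0.434 and 0.514. These distances too include the genotype difference for which Lrrc55 was chosen. Kcnmb2 and Kcnma1 were the 2 other BK genes with a lower heterozygous mean, so their nearness does not show that they vary with Lrrc55. When only the variation within each genotype was compared, among 14872 genes with a spread at least 50% of that of Lrrc55, the closest were Lce3c, Mak and Olfr1152, at distances of 0.0375, 0.0501 and 0.0538. All 3 had group means between 5.495 and 5.988, below the median gene.

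**Figure D3:**
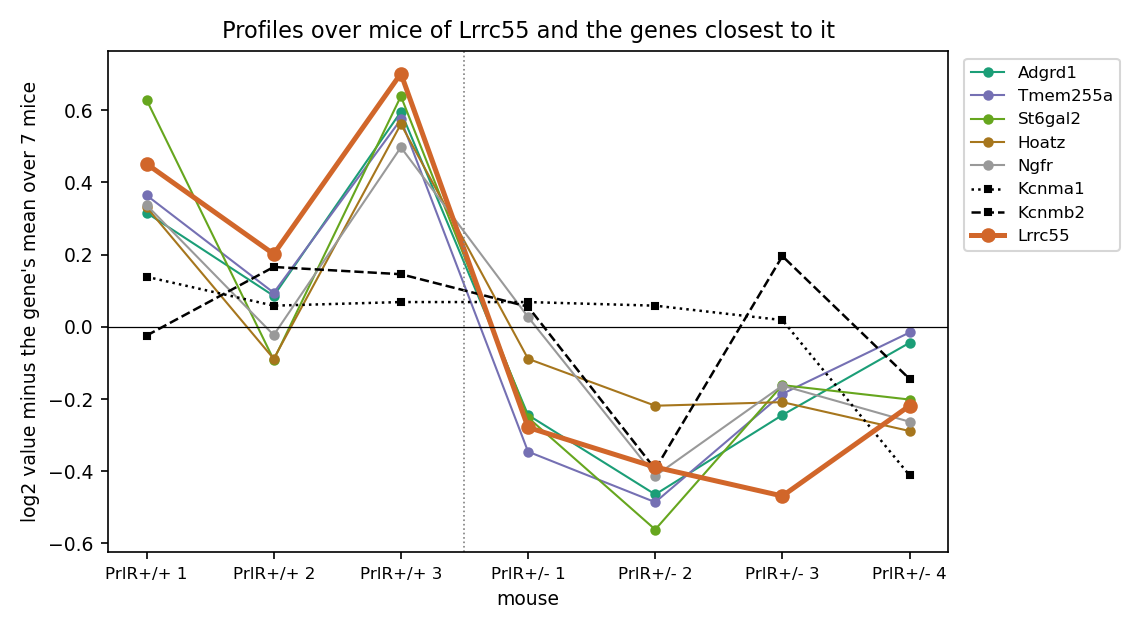
Log2 value of Lrrc55 (thick orange), the 5 genes closest to it in profile, and Kcnma1 and Kcnmb2 (black), each minus its own mean over the 7 mice, which are on the x axis; lines only join the values of a gene. The 5 genes were selected for following Lrrc55 over these mice, within distances of 0.137 to 0.205, while Kcnma1 was near level except in PrlR+/- 4 at 9.73.

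Lrrc55 lies on chromosome 2, and the 3 nearest measured genes on each side, in the RefSeq gene order of GRCm38.p6, were compared in the same way. On the lower-coordinate side Aplnr, the apelin receptor gene, had a difference of 0.07 ± 0.26 (SE), Tnks1bp1 of 0.07 ± 0.08 and P2rx3, an ATP-gated channel gene, of -0.13 ± 0.08. On the other side the olfactory receptor genes Olfr987, Olfr988 and Olfr992 had differences of -0.12 ± 0.08, 0.15 ± 0.14 and 0.19 ± 0.11. Their values lay between 3.30 and 4.07, near the floor of the array. None of these 6 genes passed, with an adjusted p of 0.99 each by limma, and the groups overlapped or met for all 6.

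Genes that work beside BK channels gave 0 calls in the same limma test, where 0 of all genes passed. In the 4 lists that follow, 0 genes had an unadjusted p under 0.05, against 2.20% of all genes. Of 7 other Slo-family and calcium-gated potassium channel genes, 0 passed; 5 means were higher and 2 lower, between -0.018 and 0.114, with a median of 0.048. The smallest unadjusted p values in that list belonged to Kcnu1, the sperm potassium channel gene, at 0.11 ± 0.07 (SE), and Kcnt1, a sodium-activated channel gene, at 0.05 ± 0.06. Of 12 measured genes for calcium entry and release channels, whose calcium can open BK channels, 0 passed, and 7 were higher and 5 lower with a median of 0.008. Cacna1c, the pore gene of an L-type calcium channel of beta cells, was at 9.06, 8.94 and 8.93 in controls 1 to 3 and at 9.06, 9.25, 9.22 and 9.06 in heterozygotes 1 to 4. The groups met at 9.06, with a difference of 0.17 ± 0.07 (SE); Cacna1h, a T-type calcium channel gene, was at 0.10 ± 0.07.

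Kinases known to modify BK channels were evenly split, 3 higher and 3 lower of 6 measured, with a median of -0.0067 and 0 passing. Prkca, a protein kinase C gene, was at 10.66 and 10.75 in PrlR+/- 3 and 4 and from 9.95 to 10.20 in the remaining 5 mice, a difference of 0.25 ± 0.21 (SE). Prkacb, a catalytic subunit of protein kinase A, differed by -0.04 ± 0.06. Of 12 genes of endoplasmic reticulum calcium handling and stress, 4 were higher and 8 lower, 0 passed, and the median was -0.033. The differences ran from -0.182 to 0.501. The 4 higher genes were Ddit3 at 0.501, Trib3 at 0.473, Atf4 at 0.171 and Herpud1 at 0.116. Trib3, which rises under ER stress, was at 8.02 in PrlR+/- 3 and from 6.49 to 7.27 in the other 6 mice, and its difference was 0.47 ± 0.29 (SE). Pdia4, a folding enzyme gene, differed by -0.18 ± 0.14, with its lowest value of 11.40 in PrlR+/- 4.

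Markers of other cells that can carry BK subunits were set beside these values. Smooth muscle and pericyte markers, 10 of 10 measured, had a mean level of 7.117 to 7.248 in PrlR+/+ and 7.159 to 7.397 in PrlR+/- mice, with 7 higher, 3 lower and a median of 0.081; Des and Lmod1, muscle filament genes, were at 0.14 ± 0.08 and 0.12 ± 0.08 (SE). Schwann cell and neuron markers, 7 of 9 measured, were all 7 higher, with a median of 0.156, where 11215 of all 19938 genes were higher. Their mean level was 7.409 to 7.531 in PrlR+/- and 7.227 to 7.401 in PrlR+/+ mice, a narrow separation that was not tested. Without PrlR+/+ 3 the median was 0.0875. None of the 7 markers passed by itself, and Uchl1 and Nefm were at 0.18 ± 0.08 and 0.18 ± 0.09. The part of these markers in the values of Kcnmb1 and Kcnmb4 was not tested.

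Beta cell markers had a median difference of -0.041 over 9 of 10 listed genes, with 6 lower and 3 higher. Among them were Slc2a2, the glucose transporter gene, at -0.34 ± 0.21 (SE) and the transcription factor gene Nkx6-1 at 0.10 ± 0.06. Slc2a2 was at 11.31 in PrlR+/- 4, the mouse with the low Kcnma1, and from 11.94 to 12.39 in the other 6. The median was 0.058 for 4 of 6 alpha cell markers, 3 higher and 1 lower, with Gria3 at -0.37 ± 0.21 and Irx2 at 0.09 ± 0.07, and 0.09 for 4 delta cell markers, 3 higher and 1 lower, with Rbp4 at 0.16 ± 0.14 and Sst at 0.07 ± 0.09. Acinar markers, 9 of 12 measured, had a median of 0.132 with 8 higher and 1 lower, among them the elastase genes Cela2a at 0.14 ± 0.12 and Cela1 at 0.32 ± 0.28. Duct markers, 6 of 8 measured, were higher for 4 and lower for 2, from -0.144 to 0.451, with a median of 0.07; Sox9 at 0.21 ± 0.12 and Muc1 at 0.45 ± 0.34 had the smallest unadjusted p. Both had their highest value in PrlR+/- 2, at 8.20 and 10.12, against at most 7.76 and 9.09 in the other 6 mice. Of 8 endothelial markers 5 were higher and 3 lower, with differences from -0.167 to 0.256 and a median of 0.107; those of smallest unadjusted p were Emcn at 0.26 ± 0.09 and Cdh5 at 0.23 ± 0.10. In each of these marker lists 0 genes passed. The 2 markers Emcn and Cdh5 had an unadjusted p under 0.05 by limma, where 2.20% of all genes did, and nothing is read from that count. For Sox9 the highest control was at 7.71 and the lowest heterozygote at 7.73, and for Emcn these were at 11.30 and 11.34. The groups of these 2 markers thus did not overlap, as for 2.24% of all genes, and nothing is read from that either.

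**Figure D4:**
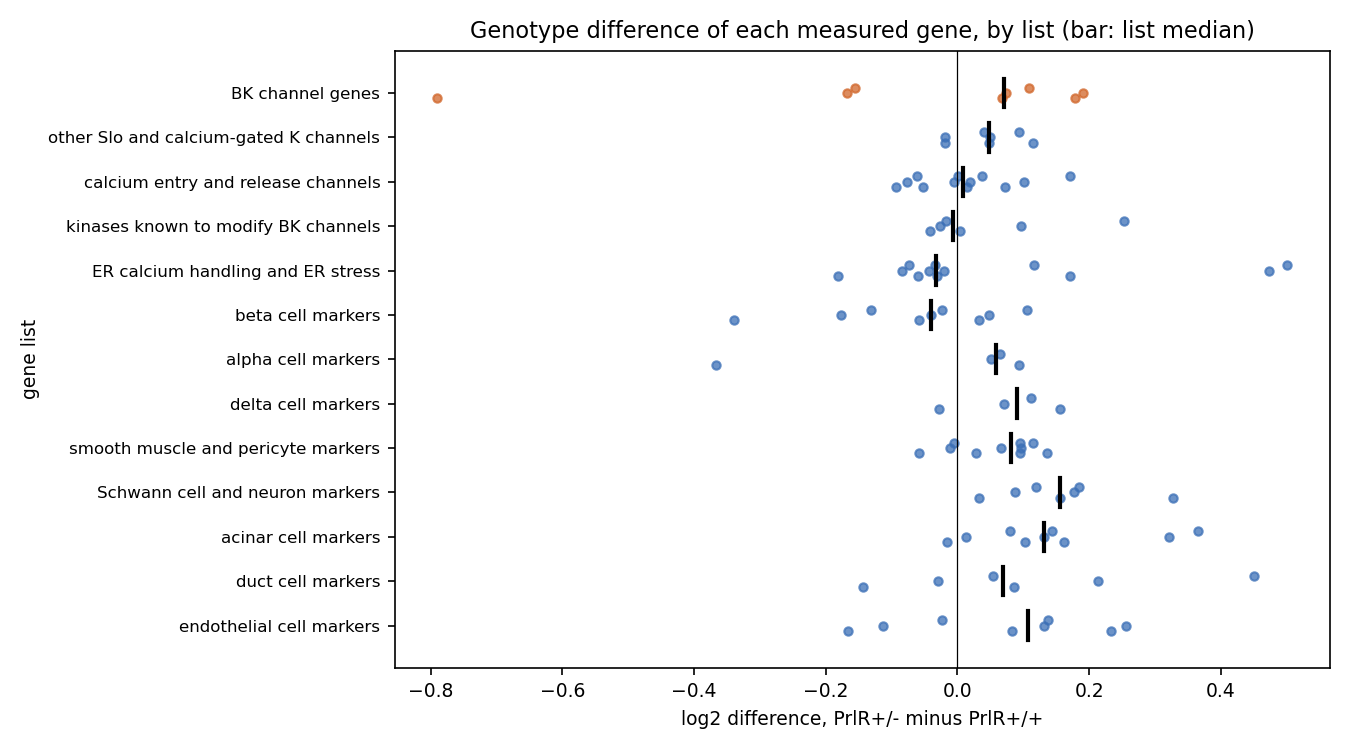
Log2 difference, PrlR+/- minus PrlR+/+, of every measured gene of the BK channel list (orange) and of the 12 other lists (blue), with a black bar at each list median. Lrrc55 at -0.79 is the lowest point of all lists, the list medians lie between -0.041 and 0.156, and the median of all genes was 0.014.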

How the data were processed

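Islet RNA of 7 mice was measured on 1 array per mouse, from 250 ng of RNA (integrity number above 8.5) labelled with biotin, per the labels' protocols. The authors deposited log2 values per probe set, with a range of 1.73 to 13.97; that they are on a log2 scale follows from this range. Affymetrix Expression Console 1.2.0.20 was used, per the submitters' processing notes; how background and normalization were handled is not given in the sources used here. Scan dates and batches were not analysed here, and a batch that followed genotype could not be told apart from it.

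Of 35556 probe sets, 21789 had 1 gene symbol in the platform annotation and were used, 1621 had several and 12146 were not listed. The highest-mean probe set stood for each of 999 genes with more than 1. Differences, standard errors and 95% intervals come from limma 3.58.1 (lmFit, eBayes) in R 4.3.3 over all 19938 genes, 2-sided, at a threshold of 0.05 on the Benjamini-Hochberg adjusted p; p-values measure the spread between mice. An exact permutation test over the 35 splits of the mice, smallest possible p 0.0286, was an alternative. Steps were tested on simulated data. Tables were made with pandas 2.3.3 in Python 3.11.15. Motifs were sought in RefSeq windows (GRCm38.p6).

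Members and gene lists were chosen with earlier results of these data known. The lists were BK channel genes, other Slo-family and calcium-gated channels, calcium entry and release channels, kinases, ER calcium and stress genes, and markers of beta, alpha, delta, smooth muscle and pericyte, Schwann and neuron, acinar, duct and endothelial cells; 102 of 114 genes were measured. Named genes are the 8 members, the 3 nearest measured neighbours per side of Lrrc55, the 5 genes closest to it in profile and 3 closest within genotype, and the 2 genes of smallest unadjusted p per list. The 4 higher genes of the ER list are named as well. Alternatives were other eBayes models, array weights, other scalings, a filter at the 40th percentile, the mean of all probe sets, the replicate number as a block and leaving out each mouse.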

Additional observations from a re-analysis of the deposited data

Results flagged for a closer look

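In the PrlR+/- group of 4, the gap between an extreme mouse and the next was divided by the range of the group. This ratio passed Dixon's critical value of 0.829 for 6 of 58 genes and list means screened. Its nominal rate of 5% holds for independent normal values. The items here overlap, some were picked for their differences, and ties among rounded values raise the ratio. The count is therefore not read against that rate. Kcnma1, the BK pore gene, was at 9.73 in PrlR+/- 4 and between 10.16 and 10.21 in the 3 others. Kcnt1 was at 6.26 in PrlR+/- 2 and at 6.12 in the 3 others. Tnks1bp1, a neighbour of Lrrc55, was at 8.89 in PrlR+/- 3 and at 8.65 in the 3 others. The duct markers Sox9 and Muc1 were at 8.20 and 10.12 in PrlR+/- 2, against 7.73 to 7.76 and 8.73 to 8.95. The mean of the ER calcium handling and stress genes was 11.544 in PrlR+/- 3 and 11.263 to 11.282 in the others.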

How the results depend on the processing

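Over 15 alternatives, the replicate block included, the difference of Lrrc55 stayed between -0.915 and -0.665, as a description of a gene chosen for its difference. The other eBayes models, the filter and the mean of all probe sets left it at -0.79. They could not change it and are no check of its size. None of the 7 other BK genes passed under any alternative in which it was tested (limma, adjusted p from 0.818 to 1.0; exact permutation test, p from 0.257 to 0.543). limma called 0 genes under each of the 15 alternatives. The filter at the 40th percentile removed Lrrc38, Lrrc52 and Kcnmb4, so the medians of the BK genes were not computed there.

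With array weights Kcnmb1 turned to -0.037, and the median was -0.0135 for the 8 BK genes in place of 0.07 and 0.00995 for the 7 without Lrrc55. With a mouse left out these medians ranged from 0.00625 to 0.113 and from 0.0075 to 0.127, lowest without PrlR+/+ 2; without PrlR+/- 3 the second was 0.127. The duct marker median was 0.213 with the filter in place of 0.07. The count of genes whose groups do not overlap, 446, was 841 with quantile normalization and 802 with median centring. It was 705 to 2049 with a mouse left out, where it can only stay or rise because fewer values have to separate. These alternatives were chosen after seeing the data. Groups that met at the same value counted as overlapping, and the part of such ties in the rise with either scaling was not tested. None of the 7 other BK genes was among those counted with either scaling.

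The labels do not state that replicate numbers pair mice, so the numbers were not taken to pair them. Deviations of same-numbered mice from their group means had correlations over genes of 0.09, -0.386 and -0.029. So few values, taken from small groups, cannot exclude pairing. Replicate 4 exists in PrlR+/- only, so the replicate block gives the same differences as leaving that mouse out and is no separate check: Lrrc55 was at -0.83, Kcnma1 at -0.04 and Kcnmb1 at 0.0533, and 0 genes passed.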

Other observations

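Kcnmb3, a BK beta subunit outside the chosen genes that was looked up after the other values were seen, was at 7.01 ± 0.01 (SD, n = 3) in PrlR+/+ mice and at 7.01, 7.01, 6.70 and 7.26 in PrlR+/- 1 to 4. PrlR+/- 4 was the highest mouse, as for 4 of the 8 genes above and for 42.4% of all genes below the median level. The difference of the means was -0.015.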
